A study of Drosophila melanogaster with 4 samples.

Results

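The left arm of chromosome 3 (3L) of Drosophila melanogaster held 364 dRING regions that were found in both ChIP-seq libraries of wild-type Oregon-R embryos aged 14 to 16 h. A region of the series list was counted as replicated where at least 1 bp of it was overlapped by an enriched cluster of replicate 1 and by an enriched cluster of replicate 2. This held for 364 of the 1352 listed regions of 3L (26.9%), for 1736 of the 6034 listed regions of the 5 other arms (28.8%), and thus for 2100 of 7386 on all 6 arms (28.4%). The series compared chromatin precipitated with the antibody Q3200, raised against dRING (dRING ChIP, 2 libraries), with input chromatin (2 libraries, 1 paired with each ChIP library by its label). All 4 libraries came from the same strain, genotype and stage, and no perturbed or mutant sample was analysed here. Whole embryos were used, so fewer cells with dRING at a place and less dRING per cell cannot be told apart. Separate embryo collections for the replicates are not stated in the labels, so differences between them may be technical. The regions were chosen by overlap with the clusters of both libraries, that is by the enrichment measured in these libraries, so their number, scores and lengths are given as a description with no test.

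dRING, encoded by Sex combs extra, is a core subunit of Polycomb repressive complex 1 (PRC1) and attaches ubiquitin to histone H2A. Polycomb complexes are recruited in flies through Polycomb response elements, short stretches of DNA from which they act on chromatin, and the histone mark H3K27me3 can spread from them over whole genes. Developmental regulators such as homeobox and T-box genes are the best known targets, and in embryos Polycomb repression keeps them silent outside the segments and tissues where they act. Well known targets on 3L include the Iroquois complex (ara, caup and mirr, homeobox genes that pattern the body wall) and the Dorsocross genes (Doc1, Doc2 and Doc3, T-box genes of heart and amnioserosa development). The files give positions in FlyBase release 5 and no gene annotation of that release was used here, so regions are named by position and none is assigned to a gene.

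The replicated regions of 3L covered 1.35 Mb, 5.49% of the 24.5 Mb arm, and were mostly short. Their lengths ran from 1620 to 47693 bp, with a median of 2506 bp and quartiles of 2111 and 3935 bp. Regions from 2 to 5 kb were the most numerous, with 275 of 364 (75.5%) and 56.5% of the bases. A further 34 were under 2 kb, 44 were from 5 to 10 kb, and 11 were 10 kb or longer. Those 11 made up 3.02% of the regions and held 15.8% of the bases. On the 5 other arms together, 5.47% of the replicated regions were that long and held 24.1% of the bases. On X the shares were 3.01% and 12.2%, and on 3R 7.44% and 30.9%. The arms share both libraries, and these shares are given side by side without a test.

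The authors' series score, which has no stated scale, ran from 0.19 to 3.34 among the replicated regions of 3L, with a median of 0.71 (quartiles 0.46 and 1.11). The median on the 5 other arms was 0.68 (0.49 and 1.11), between 0.60 on 2L and 0.86 on X. A score of 2 or more was held by 24 regions of 3L (6.59%), against 120 (6.91%) on the other arms. The median score rose with length, with 0.37 under 2 kb, 0.69 from 2 to 5 kb, 0.90 from 5 to 10 kb and 1.07 at 10 kb or longer. A score of 2 or more was held by 0 of 34 regions under 2 kb, 20 of 275 from 2 to 5 kb, 4 of 44 from 5 to 10 kb and 0 of 11 at 10 kb or longer. The last class is too small to be set apart from the 6.59% of all replicated regions of the arm. The 24 were 2.22 to 6.44 kb long, and the highest series score at 10 kb or longer was 1.75. Across the 364 regions Spearman's rho of length and score was 0.49, and across the 1736 regions of the other arms it was 0.41. Regions of an arm share libraries, depth and base composition, so these coefficients are descriptions.

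**Figure D1:**
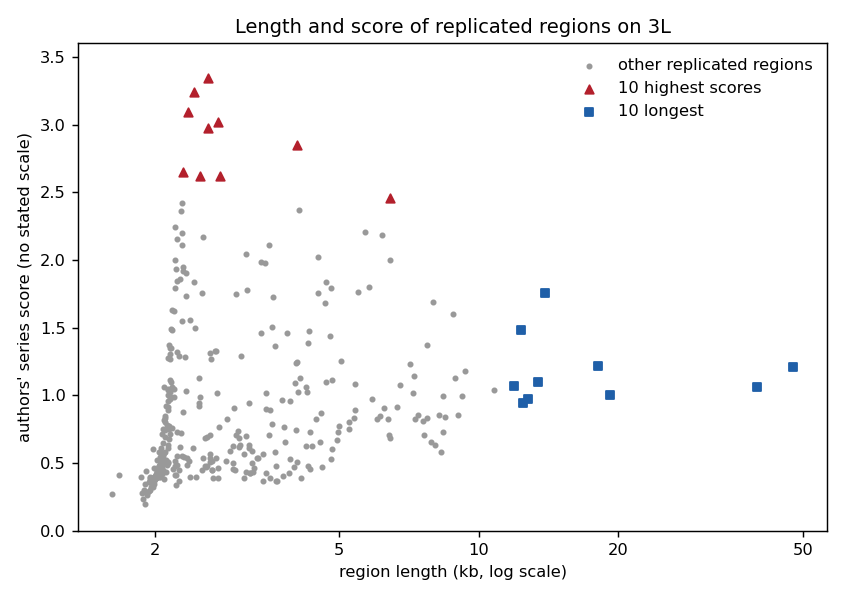
Each point is 1 of the 364 replicated regions of 3L, with its length in kb on a log axis and the authors' series score on the vertical axis. The 10 regions with the highest scores (2.46 to 3.34) lie between 2.30 and 6.42 kb, and the 10 longest (11.9 to 47.7 kb) have scores of 0.94 to 1.75.

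The strongest site of the arm lay at 3L:21231956-21234559. This 2.60 kb region had cluster scores of 3.07 in replicate 1 and 3.74 in replicate 2 and a series score of 3.34. No other replicated region lay within 19.0 kb of it, and the nearest on its low-coordinate side was 179 kb away. The second, at 3L:4107664-4110099, had 3.17 in replicate 1 and 3.37 in replicate 2, the closest agreement among the 10 highest. The third, at 3L:16082665-16085019, had 2.97 in replicate 1 and 3.24 in replicate 2. These 3 were isolated sites, each more than 10 kb from the next replicated region.

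A pair of the 10 belonged to a single group of strong sites. The stronger, at 3L:18763457-18766191, had 2.89 in replicate 1 and 3.34 in replicate 2. The other, at 3L:18773846-18777891, lay 7.65 kb further along and had 2.22 in replicate 1 and 3.41 in replicate 2. Between them in rank, the region at 3L:18613395-18615996 stood alone, with 217 kb free of replicated regions before it and 17.0 kb after it. Its scores differed more than those of any other of the 10, with 2.20 in replicate 1 and 3.68 in replicate 2 (mean 2.94 ± 1.05, SD, n = 2).

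The following 3 had series scores of 2.62 to 2.65, and each had a weaker replicated neighbour within 3 kb. At 3L:16968183-16970480 the scores were 2.35 in replicate 1 and 2.99 in replicate 2. At 3L:7820123-7822626 they were 2.02 in replicate 1 and 3.11 in replicate 2, and the next replicated region began 0.497 kb further on. At 3L:22827247-22830015 they were 2.03 in replicate 1 and 3.18 in replicate 2. The last of the 10, at 3L:9117285-9123708, was the longest of the 10 at 6.42 kb, with 2.21 in replicate 1 and 2.98 in replicate 2.

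These 10 were nearly filled in both libraries, with 95.4 to 100% of each region covered by clusters in replicate 1 and 92.4 to 98.8% in replicate 2. In 9 of the 10 each library had a single cluster, and in the last of the 10 replicate 2 had 2. Of the 10, 5 stood alone and 5 had a replicated neighbour less than 10 kb away. The other 14 regions with a score of 2 or more had series scores of 2.00 to 2.42. The 24 fell in 17 of the 25 windows of 1 Mb (the last window is incomplete), and 8 of them lay between 16 and 19 Mb. Of the 10 highest, 6 lay between 16 and 22 Mb. Both stretches were picked after the positions were seen, so these counts do not show a grouping of strong sites. The 1 Mb windows from 16 to 22 Mb held 13, 23, 21, 16, 14 and 16 of the 364 replicated regions. The median over complete windows was 14. Between neighbours among the 24, the median gap was 733 kb. The shortest gap was 3.36 kb and the longest 3.09 Mb.

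The 10 longest regions had series scores of 0.94 to 1.75, which ranked from 43 to 130 among the 364, and their highest cluster scores were 1.16 to 1.93 in replicate 1 and 1.37 to 2.49 in replicate 2. The longest, at 3L:8992903-9040595, spanned 47.7 kb. Replicate 1 filled 99.5% of it with 2 clusters that nearly met, of 31.9 and 15.6 kb, with scores of 1.28 and 1.38. Replicate 2 covered 72.7% with 6 clusters, and the 3 strongest, with scores of 1.33, 1.41 and 1.53, were 6.46 to 9.30 kb long. The other 3 replicate 2 clusters there had scores of 0.60 to 0.88. A narrow site at 3L:9049605-9052144 followed 9.01 kb after this stretch, with 2.12 in replicate 1 and 2.35 in replicate 2. The narrow site had the higher score of the pair in both libraries.

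The second longest, at 3L:12659798-12699696, spanned 39.9 kb. A single cluster of 38.6 kb and score 1.16 covered 96.6% of it in replicate 1. In replicate 2 the cover was 55.7%, made of a 14.8 kb cluster with a score of 1.57 and 5 clusters of 1.30 to 1.80 kb with scores of 0.52 to 0.60. The next in length, at 3L:12561954-12581127 (19.2 kb) and 3L:12592869-12610971 (18.1 kb), lay on the same stretch of the arm. Replicate 1 covered 92.8% of the longer and 91.3% of the shorter, and replicate 2 covered 47.9% and 41.8%.

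The fifth longest, at 3L:17952833-17966736 (13.9 kb), differed from these in that the libraries gave nearly the same picture. Each had a cluster of 9.75 kb, with a score of 1.93 in replicate 1 and 2.35 in replicate 2, and a short cluster of 2.04 kb in replicate 1 and 2.08 kb in replicate 2. The region at 3L:631678-643978 (12.3 kb) was also matched, with 66.5% covered in replicate 1 and 71.0% in replicate 2. The remaining 4 were 3L:12642241-12655681, 3L:14160452-14173246, 3L:6889264-6901724 and 3L:21464235-21476144. They were 11.9 to 13.4 kb long, with series scores of 0.94 to 1.10. Replicate 1 covered more of the region than replicate 2 in 8 of the 10 longest, and used 16 clusters in all where replicate 2 used 30.

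The uneven cover grew with length. In the 11 regions of 10 kb or longer, clusters covered 87.9 ± 10.4% of a region in replicate 1 and 57.0 ± 13.5% in replicate 2 (SD over 11 regions). From 5 to 10 kb the means were 86.5 ± 13.7% and 68.0 ± 19.8% (44 regions), and from 2 to 5 kb 86.5 ± 15.3% and 85.0 ± 16.9% (275 regions). Under 2 kb replicate 2 covered slightly more, 86.2 ± 9.84%, where replicate 1 covered 83.1 ± 10.3% (34 regions). The shortest cluster of either list had 1301 bp, and whether this length bears on the cover of regions under 2 kb was not tested. How reads were turned into clusters is not stated, and its part in this difference was not tested.

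Within most replicated regions of 3L the clusters of the libraries lay close together. The rule kept only regions overlapped by a cluster of each library, so this closeness is in part set by the choice. Among all clusters of 3L, 377 of 615 in replicate 1 (61.3%) overlapped a replicate 2 cluster. In replicate 2, 398 of 532 (74.8%) overlapped a replicate 1 cluster. In 327 of the 364 (89.8%) each library had a single cluster, and the midpoints of these clusters lay a median of 71.5 bp apart. The distance was 500 bp or less in 292 of the 327 (89.3%). For the 21 such regions with a score of 2 or more the median distance was 22 bp and the largest 570 bp. Cluster lengths were also alike, with a median of 2107 bp in replicate 1 and 2106 bp in replicate 2, and replicate 1 had the longer cluster in 160 regions and replicate 2 in 166. In 1 of the 327 the clusters touched the same region without overlapping each other.

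The order of the scores was also shared. Spearman's rho of the highest cluster score in replicate 1 and in replicate 2 was 0.87 across the 364 regions, and 0.83 across the 1736 regions of the other arms, as a description. Replicate 2 gave the higher score in 285 of the 364 regions (78.3%), with a median difference (replicate 2 minus replicate 1) of 0.16 and quartiles of 0.01 and 0.37. The excess was greatest in the strong regions. In the 91 regions with the highest series scores (1.11 to 3.34) replicate 2 was higher in 89, with a median difference of 0.45. In the 3 lower groups of 91 regions, from low to high series score, it was higher in 69, 61 and 66, with median differences of 0.06, 0.03 and 0.21. Each list carries its own scores, so these differences describe the lists and not dRING binding.

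The largest difference was at 3L:18757819-18760099, with 1.40 in replicate 1 and 3.09 in replicate 2. The largest in the other direction was at 3L:12699733-12703056, with 1.16 in replicate 1 and 0.65 in replicate 2. The replicate 1 value at this second region belonged to the 38.6 kb cluster that begins in the neighbouring region. It was followed by 3L:13395135-13398934, with 1.03 in replicate 1 and 0.57 in replicate 2.

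**Figure D2:**
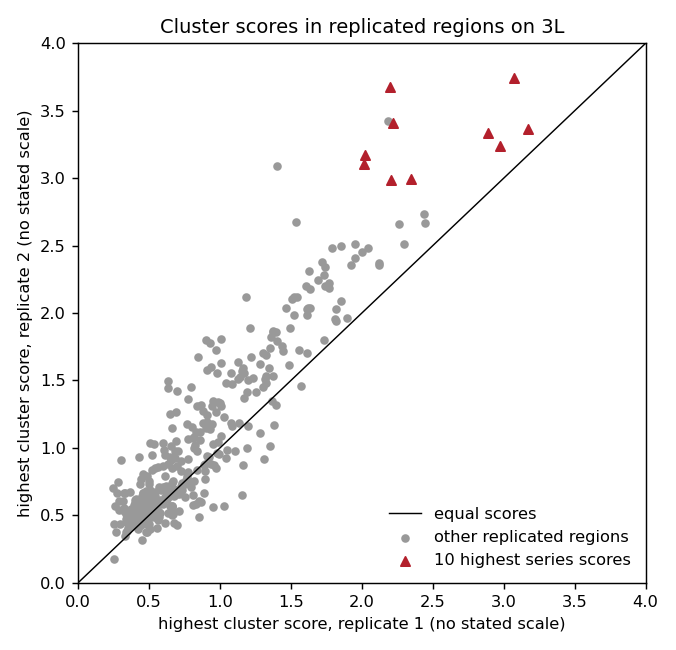
Each point is a replicated region of 3L, with the highest score of its overlapping clusters in replicate 1 on the horizontal axis and in replicate 2 on the vertical axis. All 10 regions with the highest series scores (triangles) lie above the line of equal scores, by 0.20 to 1.48.

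Replicated regions occurred along nearly the whole arm but not at its high-coordinate end, which is the end next to the centromere. The first lay 127 kb from the low-coordinate end, at 3L:126635-130176. The last, at 3L:22940420-22942487, lay 1.60 Mb from the high-coordinate end. The stretch beyond it held 7 listed regions, with a median length of 1002 bp, and no cluster of either replicate. A bare end was not particular to 3L. The longer end stretch without a replicated region was 1578 kb on 2R, at its low-coordinate end. At the high-coordinate end it was 986 kb on 2L, 228 kb on 4, 165 kb on X and 5.38 kb on 3R. On 3R neither end was bare, since the first replicated region lay 0.004 kb from its low-coordinate end. The stretch on 2L held 1 cluster of replicate 1 and 2 of replicate 2, unlike that of 3L. When 3L was divided into 10 equal parts, the part with the highest coordinates held 13 replicated regions and the others 30 to 48 each. Among the 24 complete windows of 1 Mb the count was 0 to 24, with a median of 14. Covered bases peaked between 12 and 13 Mb, at 168 kb (16.8% of the window), where the median over windows was 52.5 kb. This window held 23 regions, and its highest score was only 1.22. The windows from 0 to 1 Mb and from 3 to 4 Mb held 24 regions each, with 97.7 and 91.9 kb covered. The window from 13 to 14 Mb, beside the peak, was the poorest of those with any region, with 7 regions and 18.7 kb.

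**Figure D3:**
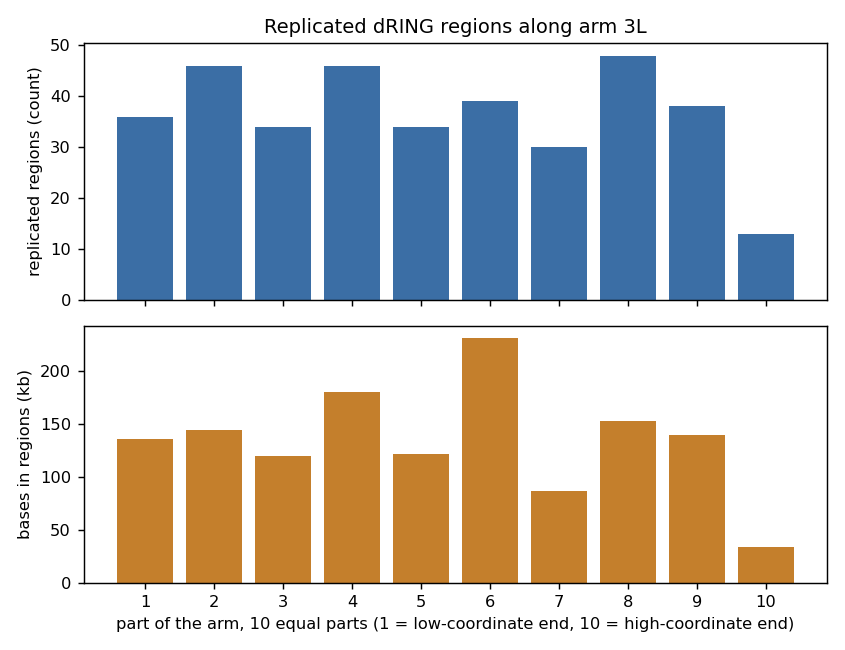
Bars give, for each of 10 equal parts of arm 3L from its low-coordinate to its high-coordinate end, the number of replicated regions (upper panel) and the bases in them in kb (lower panel). The sixth part has the most bases (231 kb in 39 regions), and the last has the fewest regions (13, with 33.5 kb).

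Neighbouring replicated regions of 3L were separated by a median gap of 31.8 kb (quartiles 8.80 and 77.3 kb, 363 gaps). The median was 21.9 kb on the 5 other arms together (1731 gaps), and 19.2 kb on X, 20.2 kb on 4, 20.5 kb on 2R, 21.7 kb on 3R and 26.9 kb on 2L. The density ran the same way, at 14.8 replicated regions per Mb on 3L and 18.1 per Mb on the other arms. It was 11.1 per Mb on 4, 15.0 on 2L, 16.7 on 2R, 18.8 on 3R and 22.2 on X. The series list itself held 1352 regions over the 24.5 Mb of 3L and 6034 over the 95.8 Mb of the other arms. The replicated share of these was 26.9% on 3L and 28.8% on the other arms. Gaps under 10 kb made up 26.7% of those on 3L and 33.3% of those on the other arms. The share was 27.2% on 2L, near that of 3L, 34.4% on 2R, 34.6% on 3R, 35.0% on X and 42.9% on 4. Gaps of 3L ranged up to 431 kb, and 62 of them exceeded 100 kb. No test of these differences between arms was made, since the 2 libraries are common to all arms.

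The longest stretch between replicated regions ran from 4534219 to 4965647 (431 kb). It held 13 listed regions with a highest score of 0.51, and 2 replicate 1 clusters and no replicate 2 cluster. The next 4, of 364 to 374 kb, ran from 9815300 to 10189307, from 13497030 to 13871030, from 21888027 to 22259936 and from 1181932 to 1545550. They were not empty in the lists, with 5 to 13 listed regions each, and 1 to 5 clusters of replicate 1 and 0 to 2 of replicate 2. The highest listed score was 1.19 in the stretch that starts at 13497030, and 0.43 to 0.48 in the rest of these 4.

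**Figure D4:**
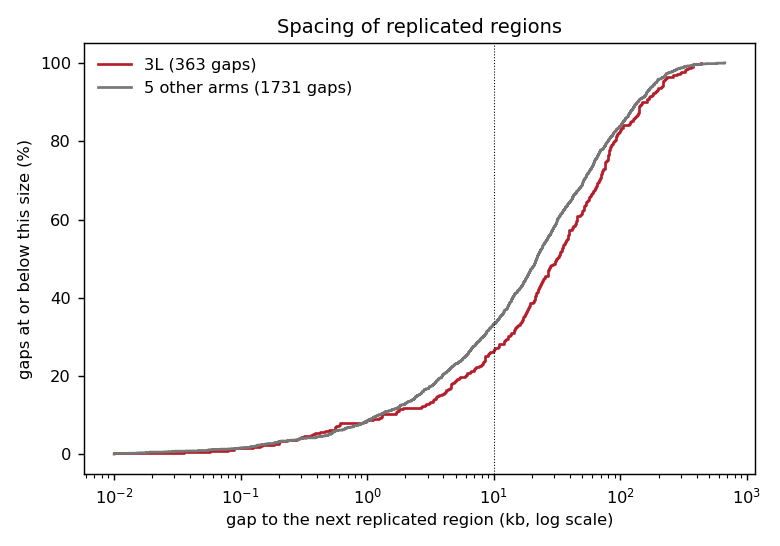
Cumulative share of gaps between neighbouring replicated regions, in percent, by gap size in kb on a log axis, for 3L (363 gaps) and the 5 other arms together (1731 gaps). Gaps under 0.01 kb are drawn at 0.01, the dotted line marks 10 kb, at which the curves stand at 26.7% for 3L and 33.3% for the other arms.

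Some regions nearly touched. On 3L 32 gaps were under 1 kb, and the closest pair, 3L:17564344-17568368 and 3L:17568369-17571959, had no base between them. The next had 36 bp between 3L:12659798-12699696 and 3L:12699733-12703056, and the third 57 bp between 3L:17561071-17564286 and 3L:17564344-17568368. A single cluster bridged the gap at 2 of the 32 in replicate 1 and at 1 of the 32 in replicate 2, so most close pairs were also separate clusters in the libraries.

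Joining replicated regions less than 10 kb apart gave 267 domains on 3L. Of these, 207 were single regions, 42 held 2 regions, 12 held 3, 3 held 4, and the 3 largest by number held 11, 8 and 6. Regions in domains of 2 or more numbered 157 (43.1% of 364), against 52.9% on the other arms. The share was 45.7% on 2L, near that of 3L, 52.4% on 2R, 54.2% on 3R, 56.2% on X and 73.3% on 4. The 157 regions of 3L had a median length of 2992 bp and a median score of 0.75. Regions of 3L standing alone had 2291 bp and 0.69. A score of 2 or more was held by 12 of the 157 and by 12 of the 207. The 5 largest domains by bases held 256 kb, 19.0% of the bases of all replicated regions of the arm.

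The largest domain, at 3L:12557255-12703056, spanned 146 kb with 11 regions covering 126 kb. It held 4 of the 10 longest regions of the arm and none with a score above 1.22. Replicate 1 covered 82.5% of the span with 15 clusters, and replicate 2 covered 40.9% with 20. Replicate 1 covered more in each of the 11 regions, and replicate 2 covered between 36.2 and 55.7% of each. The strongest places coincided, since the strongest replicate 2 cluster, from 12600974 to 12606539 with a score of 1.89, lay inside the strongest replicate 1 cluster, from 12594117 to 12608229 with a score of 1.495. With clusters of each library required to cover 50% of a region, 1 of its 11 regions was left, and the largest domain of the arm was then the one at 3L:8992903-9052144, with 50.2 kb covered.

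That second domain, at 3L:8992903-9052144, joined the longest region of the arm and the narrow site 9.01 kb after it, described above. The third, at 3L:17554392-17608303, was of another kind, with 8 regions of at most 7.96 kb over 53.9 kb. Here replicate 2 covered more of the span, 60.5% against 50.6% in replicate 1. The strongest cluster was at the same place in both, from 17568383 to 17571908 in replicate 1 (1.51) and from 17568401 to 17571720 in replicate 2 (2.11).

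The next domain by bases, at 3L:614009-643978, held 4 regions over 30.0 kb, covered to 59.2% in replicate 1 and 60.9% in replicate 2. Its strongest cluster had 1.85 in replicate 1 and 2.49 in replicate 2. The fifth, at 3L:18746144-18790027, was the group of strong sites with 2 of the 10 highest scores of the arm. It held 6 regions over 43.9 kb, with series scores from 0.98 to 3.02, and 3 of them scored 2 or more. Cover was nearly equal, at 50.3% of the span in replicate 1 and 51.4% in replicate 2. The strongest cluster of replicate 1 was at 18763492 to 18766099 (2.89) and that of replicate 2 at 18773848 to 18777835 (3.41). The order of these 2 sites differed, but replicate 2 scored them nearly alike, at 3.34 and 3.41. Replicate 1 had 2.89 and 2.22.

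**Figure D5:**
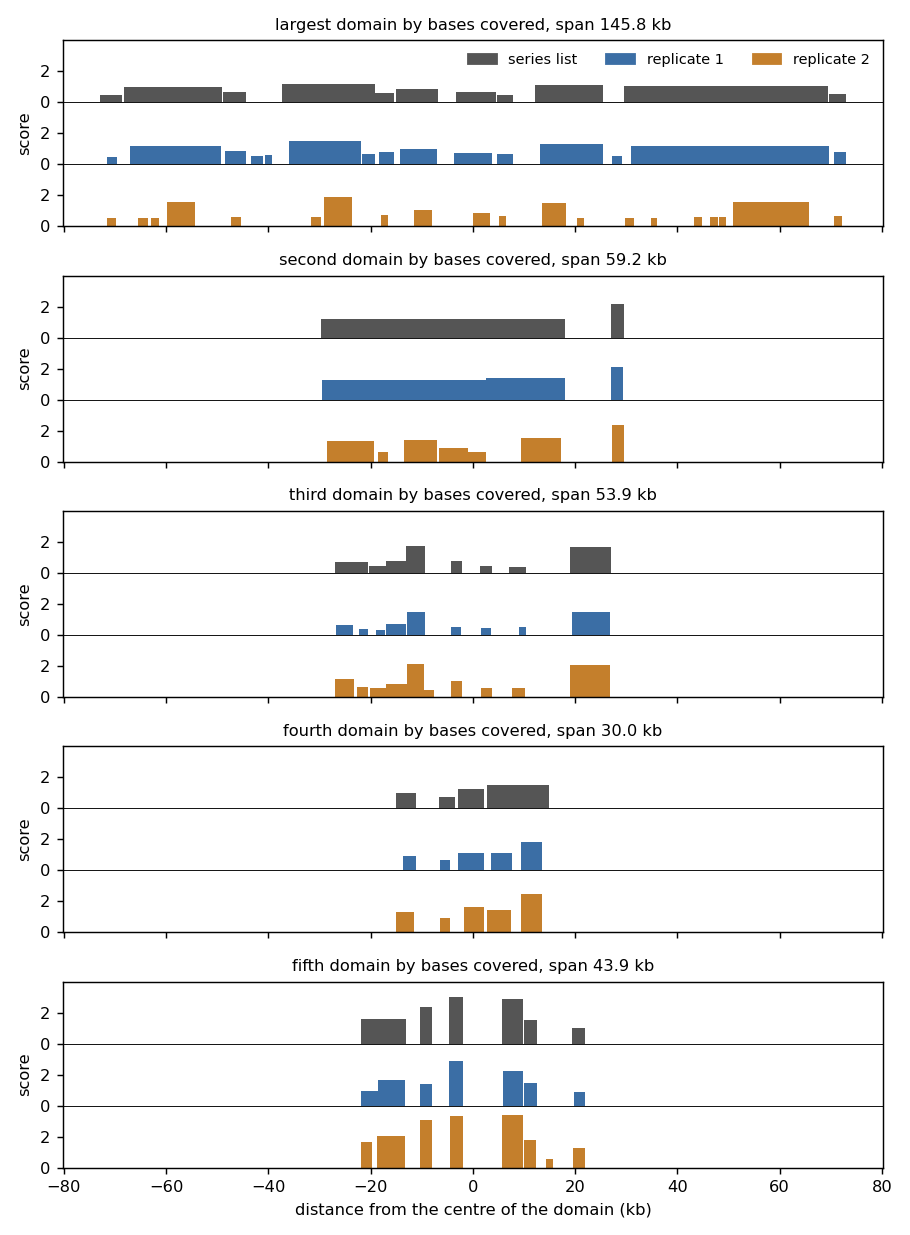
Boxes show the regions of the series list and the clusters of replicate 1 and replicate 2 in the 5 domains of 3L with the most covered bases, by distance from the centre of the domain in kb, with box height giving the authors' score on an axis that restarts at 0 for each list. In the largest domain replicate 2 covers 40.9% of the span where replicate 1 covers 82.5%, while in the fifth the lists cover 51.4% and 50.3%.

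The regions of 3L that were not replicated numbered 988. Clusters of replicate 1 alone overlapped 217, clusters of replicate 2 alone 125, and neither list 646. The replicated regions held 46.9% of the listed bases of the arm. The highest score of a region overlapped in a single library was 0.57. Among regions overlapped in neither, the highest scores belonged to regions of the minimum length of the list: 3L:5455006-5456006 and 3L:21359140-21360140 were both 1001 bp long with the same score of 3.05. A further pair of 1001 bp, at 3L:23159029-23160029 and 3L:24038533-24039533, shared a score of 2.90. The shortest cluster of either library was longer than these regions.

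On the inner side, no replicated region came close to the 1 bp limit itself. The smallest overlap of any replicated region with the clusters of a library was 1301 bp, which is also the length of the shortest cluster. It occurred in 3 regions: 3L:197987-200211, 3L:13493749-13497029 and 3L:17588335-17591765, with series scores of 0.41, 0.46 and 0.37. Each library covered at least 10% of each replicated region, and in 37 of the 364 a library covered less than 50%. Just outside, 3L:22830070-22831895 (score 0.28) was overlapped in replicate 1 and its edge was 77 bp from a replicate 2 cluster. At 3L:8537464-8538987 (0.38) the distances were 180 bp to replicate 1 and 175 bp to replicate 2, and at 3L:18756234-18757636 (0.45) they were 213 and 186 bp. In all, 59 of the 988 lay within 1 kb of a cluster of each library. Counting only clusters above the median score of their list left 197 replicated regions on 3L, all among the 364, and the 10 highest scores and the 10 longest regions named here were the same. Requiring 50% cover by each library kept the 10 highest scores but 7 of the 10 longest. Merging listed regions less than 1 kb apart kept the ends of 6 of the 10 highest and 2 of the 10 longest. After merging, the 10 highest still lay within the 10 highest merged regions, and 7 of the 10 longest lay within the 10 longest.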

How the data were processed

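dRING was measured by ChIP-seq in 2 libraries, each with an input library, and the deposited lists of enriched intervals were used as the authors made them. The submitters' processing notes list Bowtie 0.12.7, and positions are in FlyBase release 5, per the file headers. Which caller and threshold were used, and how both replicates went into the series list, is not stated there. The score of each interval is the authors' deposited score, with no stated scale, and was used to rank and describe intervals within a list and as a mean ± SD over replicates. Read counts are not part of the lists, so the depth behind them is unknown. Input values were not analysed here.

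Intervals were compared with scripts in Python 3.11.15 (with numpy 2.4.6), rank correlations used scipy 1.17.1, and plots used matplotlib 3.10.9. Coordinates count from 1. Where a library had several clusters in a region, its highest score was used. A gap is the number of bases between neighbouring replicated regions, and a domain joins regions less than 10 kb apart. The overlap and domain steps were checked against direct pairwise counts on simulated lists. With 2 libraries of a single ChIP group no test over samples was possible, and none was made over regions. The regions named are the 10 highest scores, the 10 longest, the 5 domains with the most bases, the 5 longest gaps, the 3 closest pairs and the 3 regions nearest the overlap limit on each side. The strongest regions that were not replicated, and those with the largest replicate differences, were chosen after their values were seen. The same holds for the stretches of the arm in which strong regions were counted. The members, the domain definition and this rule were chosen with earlier results of these data known. Genes were not assigned, because the gene table at hand is of release 6, and it served only to look up that the genes named as background lie on 3L. The planned look at sequence content was not made, because no genome of release 5 was used here.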

Additional observations from a re-analysis of the deposited data

How the results depend on the processing

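No paired analysis was possible because the only lists analysed come from a single ChIP group and no test was made. Values were compared with the spread (SD) between the values from either library alone, and counts within 1.5 times. Requiring 50% cover gave 327 regions, with 1118 kb covered, a median length of 2320 bp, a median gap of 38.2 kb and a largest domain of 50.2 kb. Clusters above the median score gave 197 regions, 929 kb, a median score of 1.07, a median length of 3191 bp, a median gap of 63.2 kb, 158 domains and a largest domain of 91.2 kb. Merging regions less than 1 kb apart gave 1583 kb, a median length of 2953 bp and a median gap of 37.9 kb. Joining at 5 kb in place of 10 kb left 97.7 kb in the largest domain. With a single library (without replicate 1 or without replicate 2) there were 489 to 581 regions covering 1585 to 1759 kb, median scores of 0.47 to 0.52, median lengths of 2167 to 2216 bp, median gaps of 16.0 to 23.6 kb, 342 to 343 domains and a largest domain of 126 to 140 kb. The use of fewer or more clusters by construction changes which regions are counted. In all, 14 of 39 recomputed summary values stayed within these limits and 25 moved beyond them. For the 43 named regions, the score of either library alone stayed within 1 SD of their mean, as it must with 2 values. Depth cannot be assessed from these lists.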

Other observations

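The heterochromatic sequence 3LHet, which release 5 keeps apart from arm 3L, held 9 listed regions with a median series score of 0.82 and a highest score of 3.43. Of these, 4 were shorter than any cluster of either library. A cluster of each library overlapped 1 of the 9, from 205656 to 209720 (4065 bp), with scores of 0.93 in replicate 1 and 1.04 in replicate 2. Its series score was 0.82, so the highest score of 3.43 belonged to a region that was not replicated.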
